A study of Arabidopsis thaliana with 18 samples.

Results

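The genes described here encode 18 proteins of the small, 40S subunit of the cytosolic ribosome of Arabidopsis: RPSa, S2 to S11 with S3a, S13, S14, S18, S21, S27 and S28. They are 46 loci, chosen from a list of locus identifiers, and all 46 had a value among the 27827 rows of the deposited table. The plants were the Col-0 accession, with no transgene or mutation named in the labels. RNA came from seedlings 72 h after imbibition and from freshly harvested dry seeds, and at each stage it was analysed as total RNA, as monosomal RNA (on single ribosomes) and as polysomal RNA (on several ribosomes). The 6 groups were therefore seedling total, seedling monosomal, seedling polysomal, dry seed total, dry seed monosomal and dry seed polysomal RNA, with 3 arrays each and 18 arrays in all. Plants grew in a randomized block layout and each replicate was a bulk of 8 plants, so a value is an average over plants, organs and cell types. How the ribosome fractions were separated is not given in the sources used here.

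A cytosolic ribosome is built from a 40S subunit, which binds the mRNA and checks the pairing of tRNA with the codon, and a 60S subunit, which joins the amino acids. Each protein is needed in equal amount per ribosome, and in plants nearly every one is encoded by a small family of paralogous genes whose products can stand in for each other. A dry seed keeps ribosomes and stored mRNA with almost no translation, and germination brings renewed ribosome production in growing and dividing cells. Loss of single ribosomal protein genes in Arabidopsis gives pointed, narrow first leaves, slow growth or embryo arrest, depending on the gene. Proteins were assigned to loci by the standard Arabidopsis nomenclature. The RefSeq gene table carried a ribosomal protein name for 13 of the 46 loci, and the others are named by protein and locus.

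Values are log2 intensities, so a difference of 1 is a doubling of the measured signal. Array medians over all genes lay between 3.05 and 3.65, replicate arrays correlated at 0.957 to 0.990 over all genes, and the SD of a member within a group of 3 arrays ranged from 0.0072 to 0.633, with a median of 0.151. Lists of known marker genes bore out the stage labels. The median of 8 photosynthesis genes lay between 10.6 and 11.1 on seedling arrays and between 2.48 and 4.53 on dry seed arrays. The median of 8 seed storage protein genes lay between 2.83 and 3.71 on 8 seedling arrays and between 10.9 and 11.4 on dry seed arrays. Seedling polysomal replicate 3 stood apart, with a seed storage median of 6.84. Its late embryogenesis median was 6.32, against 3.59 to 5.59 on the other seedling arrays, with 5.59 on seedling monosomal replicate 1. The median of seedling polysomal replicate 3 over the 46 genes was 8.51, against 8.49 and 8.39 on the other seedling polysomal arrays. Without this array 12 calls of 10 members were lost, all in comparisons between fractions or their differences between stages. Such losses were not particular to it, since calls between fractions were also lost without seedling polysomal replicate 1 or 2. The polysomal minus total calls of S5 gene AT3G11940 and S7 gene AT3G02560 in seedlings were lost without each of these 3 arrays.

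**Figure D1:**
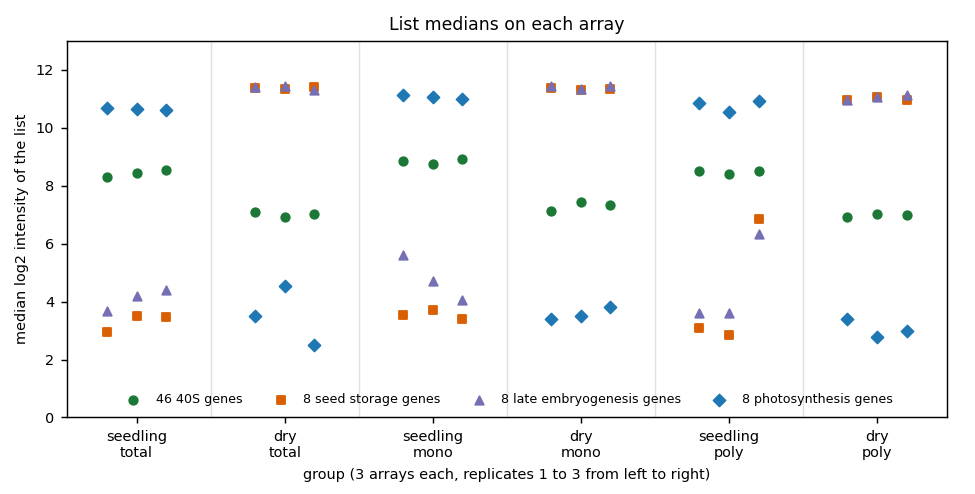
Median log2 intensity of the 46 genes for 40S proteins and of 3 marker lists of 8 genes each on every array, with the 6 groups along the horizontal axis and one point per list and array. The 40S genes sat between 8.30 and 8.92 on all 9 seedling arrays and between 6.92 and 7.43 on all 9 dry seed arrays, and seedling polysomal replicate 3 had a seed storage median of 6.84.

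The genes were first compared between stages, which asks how much of their mRNA a seedling carries, for its share of the array signal, relative to a dry seed. Most rose. In total RNA 40 of the 46 genes were called higher in seedlings and 2 lower, at an adjusted p under 0.05 in limma, against 28.8% of all 27827 genes called higher and 33.3% lower. In monosomal RNA 39 were higher and 2 lower, against backgrounds of 26.8% and 24.9%. In polysomal RNA 39 were again higher and 2 lower, against 26.7% and 26.8%. The median change of the 46 genes on the log2 scale was 1.36 in total, 1.42 in monosomal and 1.51 in polysomal RNA, whereas the median over all genes was -0.17, 0.03 and -0.03. A called rise of at least 2-fold was found for 30 members in total RNA, 32 in monosomal RNA and 35 in polysomal RNA, against 21.9%, 19.3% and 20.4% of all genes.

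Taken by gene, 36 of the 46 rose in all 3 fractions, against 19.1% of all genes, and they include at least 1 gene for every one of the 18 proteins. A further 2 genes fell in all 3 fractions, against 17.6% of all genes, S9 gene AT5G39850 and S27 gene AT2G45710. S2 gene AT1G58380 and RPSAb (AT3G04770) were called in no fraction, with changes in total RNA of 0.07 and 0.08. In monosomal RNA RPSAb had 0.57 and just missed the threshold (adjusted p = 0.0503 in limma), and AT1G58380 had 0.48 (adjusted p = 0.124). In polysomal RNA their changes were -0.09 and -0.34. The remaining 6, of S2, S3, S8, S14, S27 and S28, were called in some fractions only. The values of the 3 seedling arrays and the 3 dry seed arrays did not overlap for 40 higher and 2 lower genes in total RNA, where 30.1% of all genes were wholly higher and 36.7% wholly lower. Centring each array on its own median moved the median change of all genes in total RNA by -0.51. It removed 9 of the 42 calls there, those of RPSAA, RS27A, S3 genes AT2G31610, AT3G53870 and AT5G35530, S4 gene AT2G17360, S7 gene AT1G48830, S8 gene AT5G59240 and S28 gene AT3G10090, and turned AT3G53870 to -0.08. In bulk RNA of seeds or seedlings a change in the share of cells that express a gene and a change in mRNA per cell cannot be told apart.

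Most other ribosomal protein genes rose too. Of 49 other genes for 40S proteins, 39 were higher and 3 lower in seedling total RNA, with a median change of 1.37. Of 118 genes for 60S proteins, 99 were higher and 1 lower, with a median change of 1.37. In polysomal RNA 103 of the 118 genes for 60S proteins were higher and 3 lower, with a median of 1.52.

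**Figure D2:**
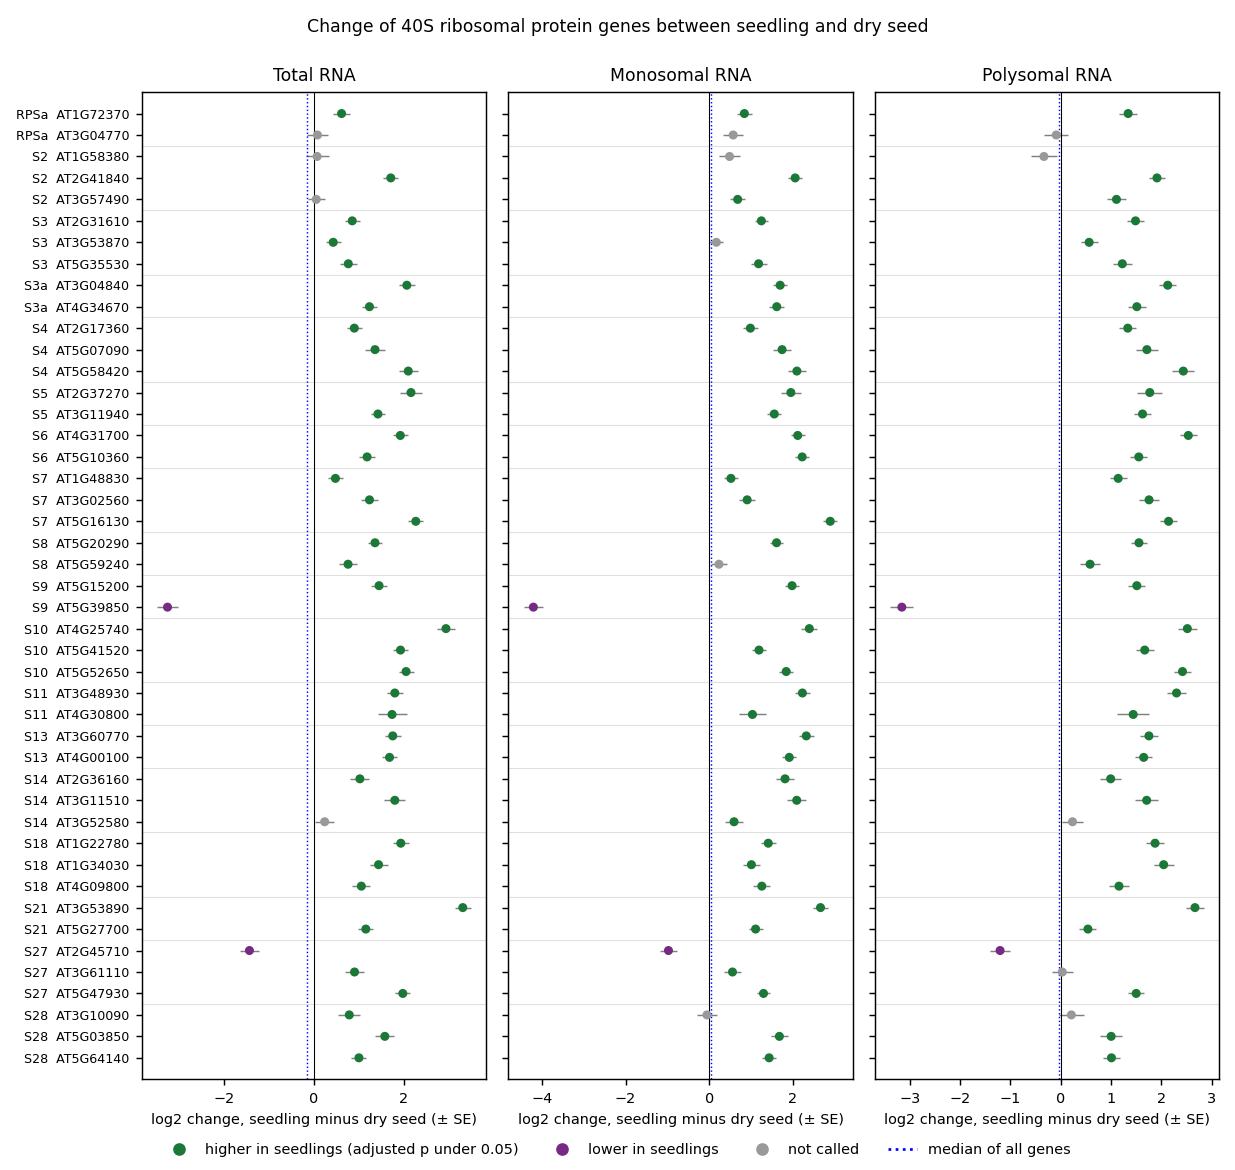
Log2 change between seedling and dry seed (horizontal axis, point with ± SE from the fit) of 45 of the 46 genes, one row per gene grouped by protein, in total, monosomal and polysomal RNA. Green points were called higher in seedlings, purple points lower, grey points not called, and the dotted line is the median of all genes. In each panel nearly all points lie right of the dotted line, with S9 gene AT5G39850 and S27 gene AT2G45710 called to the left of 0. Uncalled points left of 0 are S28 gene AT3G10090 in monosomal RNA and RPSAb and S2 gene AT1G58380 in polysomal RNA.

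At the mRNA entry side of the subunit lie S2, S3 and S9. S9 showed the widest split between paralogues. S9 gene AT5G39850 had 4.29, 4.66 and 4.40 in seedling total RNA, against 7.77, 7.56 and 7.80 in dry seed total RNA. The medians of the seedling total arrays were 3.62 to 3.65, so this transcript was little above the middle of all values in seedlings and far above it in dry seeds. Its change was -3.26 (SE 0.23, adjusted p = 1.87e-10) in total RNA, a 9.59-fold fall. In monosomal RNA it had 3.63, 4.49 and 3.93 in seedlings, against 8.46, 8.24 and 7.94 in dry seeds, a change of -4.20. In polysomal RNA it had 4.21, 4.65 and 4.30 in seedlings, against 7.32, 7.46 and 7.85 in dry seeds, a change of -3.16. The paralogue AT5G15200 did the opposite. It had 10.22, 9.90 and 10.11 in seedling total RNA, against 8.76, 8.56 and 8.59 in dry seed total RNA, and rose by 1.45 (SE 0.17, adjusted p = 4.43e-07) in total RNA, 1.97 in monosomal RNA and 1.51 in polysomal RNA.

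The S2 genes split as well. S2 gene AT2G41840 had 9.32, 9.19 and 9.25 in seedling total RNA, against 7.44, 7.57 and 7.63 in dry seed total RNA, and rose by 1.71 (SE 0.16, adjusted p = 1.87e-08). S2 gene AT3G57490 had 4.55, 4.73 and 4.96 in seedling total RNA, against 4.59, 4.56 and 4.95 in dry seed total RNA. These 2 sets of values overlapped, with a change of 0.05 (adjusted p = 0.832). On polysomes the same gene had 5.77, 5.74 and 6.0 in seedlings, against 4.72, 4.79 and 4.68 in dry seeds, and there it rose by 1.11 (adjusted p = 3.13e-05). Of the S3 genes, whose protein also lines the mRNA entry channel, AT2G31610 rose by 0.85 and AT5G35530 by 0.76 in total RNA. AT3G53870 rose by 0.43 (adjusted p = 0.0339, a call lost in 7 of 12 alternatives) in total RNA and by 0.56 (adjusted p = 0.00718) in polysomal RNA, and its change of 0.17 in monosomal RNA did not pass the test.

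RPSa, S21, S3a, S5, S14 and S28 lie around the platform and the mRNA exit. S21, which contacts RPSa on the back of the subunit, had the steepest rise of the 46 genes in total RNA. S21 gene AT3G53890 had 9.84, 9.76 and 10.11 in seedling total RNA, against 6.52, 6.49 and 6.78 in dry seed total RNA, a rise of 3.31 (SE 0.17, adjusted p = 3.31e-12) or 9.91-fold. Its paralogue AT5G27700 had 8.90, 8.66 and 8.91 in seedling total RNA, against 7.62, 7.60 and 7.80 in dry seed total RNA, a rise of 1.15. Both S21 genes rose in every fraction, and they differed in how far.

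RPSAA (AT1G72370) is related to the animal laminin receptor protein. It had 9.27, 9.18 and 9.66 in seedling total RNA, against 8.66, 8.76 and 8.85 in dry seed total RNA, a rise of 0.61 (SE 0.18, adjusted p = 0.00694). On polysomes it had 9.85, 10.11 and 10.40 in seedlings, against 8.89, 8.71 and 8.74 in dry seeds, a rise of 1.34. RPSAb, its paralogue, stayed between 3.17 and 4.60 on all 18 arrays, near the array medians. The S3a genes, whose protein sits on the platform where an initiation factor binds, rose by 2.06 (AT3G04840) and 1.23 (AT4G34670) in total RNA.

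RPS5A (AT3G11940) is known for strong expression in dividing cells, and its loss halts embryos early. It had 8.39, 8.39 and 8.49 in seedling total RNA, against 7.16, 6.91 and 6.94 in dry seed total RNA, a rise of 1.42 (SE 0.16, adjusted p = 2.98e-07). RPS5B (AT2G37270), described for differentiating cells, had 7.25, 7.25 and 7.36 in seedling total RNA, against 5.17, 4.51 and 5.71 in dry seed total RNA, a rise of 2.16 (SE 0.25, adjusted p = 2.43e-07). The values of neither gene overlapped between the stages, and those of RPS5B in dry seeds were the more scattered.

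Among the S14 genes AT3G11510 had 8.15, 8.52 and 8.90 in seedling total RNA, against 6.90, 6.30 and 6.99 in dry seed total RNA, a rise of 1.80, and AT2G36160 rose by 1.02. The third S14 gene, AT3G52580, had a change of 0.24 (adjusted p = 0.344) in total RNA and 0.23 (adjusted p = 0.401) in polysomal RNA, and rose by 0.59 (adjusted p = 0.0248) in monosomal RNA. Of the S28 genes AT5G03850 had 9.5, 9.71 and 10.04 in seedling total RNA, against 8.23, 8.27 and 8.03 in dry seed total RNA, a rise of 1.57. RPS28 (AT5G64140) rose by 1.0. S28 gene AT3G10090 rose by 0.78 (adjusted p = 0.00953) in total RNA, with values of 5.44, 5.39 and 6.03 in seedlings, against 4.48, 5.07 and 4.96 in dry seeds. Its changes of -0.06 in monosomal and 0.21 in polysomal RNA did not pass the test.

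S4, S6, S7, S8, S11, S13 and S27 belong to the body and foot of the subunit. S6 is the protein phosphorylated by S6 kinase downstream of the growth regulator TOR. RPS6 (AT4G31700) had 9.49, 9.48 and 9.85 in seedling total RNA, against 7.75, 7.79 and 7.53 in dry seed total RNA, a rise of 1.92 (SE 0.17, adjusted p = 5.14e-09). RPS6B (AT5G10360) had 9.29, 9.52 and 9.53 in seedling total RNA, against 8.22, 8.18 and 8.41 in dry seed total RNA, a rise of 1.18 (SE 0.17, adjusted p = 6.01e-06). In monosomal RNA RPS6 rose by 2.11 and RPS6B by 2.22.

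The S7 genes covered a wide span. S7 gene AT5G16130 had 8.93, 9.19 and 9.32 in seedling total RNA, against 6.86, 7.02 and 6.77 in dry seed total RNA, a rise of 2.26 (SE 0.17, adjusted p = 3.99e-10). S7 gene AT1G48830 had 9.92, 9.99 and 10.06 in seedling total RNA, against 9.59, 9.5 and 9.45 in dry seed total RNA, a rise of 0.47 (SE 0.17, adjusted p = 0.0209). That small rise, although its values did not overlap, came to -0.03 with arrays centred on their medians. The third S7 gene, AT3G02560, rose by 1.23.

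The S4 genes rose by 0.90 (AT2G17360), 1.36 (AT5G07090) and 2.10 (AT5G58420) in total RNA. S8 gene AT5G20290 rose by 1.36 in total RNA. S8 gene AT5G59240 was called higher by 0.76 (adjusted p = 0.00256) in total RNA and by 0.58 in polysomal RNA, but it lay between 1.41 and 2.72 on all 18 arrays, under the array medians. S11 gene AT3G48930 rose by 1.80. S13 binds rRNA in the body, and loss of its gene RPS13A (AT4G00100) also narrows the first leaves. That gene had 9.39, 9.75 and 9.83 in seedling total RNA, against 7.84, 7.98 and 8.12 in dry seed total RNA, a rise of 1.68 (SE 0.17, adjusted p = 4.59e-08), and S13 gene AT3G60770 rose by 1.75.

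S27 is a zinc-binding protein of the body, and its genes moved in opposite directions. S27 gene AT2G45710 had 6.09, 6.05 and 6.28 in seedling total RNA, against 7.39, 7.58 and 7.77 in dry seed total RNA, a change of -1.44 (SE 0.21, adjusted p = 5.22e-06). In monosomal RNA it had 7.15, 7.02 and 7.43 in seedlings, against 8.12, 8.31 and 8.10 in dry seeds. In polysomal RNA it had 5.96, 5.92 and 6.71 in seedlings, against 7.31, 7.5 and 7.40 in dry seeds. Its highest seedling value there was on replicate 3, the array with more storage protein signal. S9 gene AT5G39850, which also fell, was highest on replicate 2 of these arrays, at 4.65. Whether storage signal and these values are linked was not tested. The polysomal change of AT2G45710 was -1.21 with seedling polysomal replicate 3 and -1.46 without it. S27 gene AT5G47930 rose instead. It had 8.83, 8.93 and 9.09 in seedling total RNA, against 6.90, 7.02 and 7.0 in dry seed total RNA, a rise of 1.97 (SE 0.16, adjusted p = 2.58e-09).

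RS27A (AT3G61110) is known from a mutant that tolerates genotoxic stress poorly. It had 7.96, 8.23 and 8.76 in seedling total RNA, against 7.65, 7.12 and 7.49 in dry seed total RNA, a rise of 0.90 (adjusted p = 0.000757). On polysomes it had 7.40, 7.19 and 7.45 in seedlings, against 7.37, 7.24 and 7.34 in dry seeds, and these values overlapped.

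S10 and S18 sit in the head of the subunit. S10 gene AT4G25740 had 8.71, 8.52 and 9.04 in seedling total RNA, against 5.77, 5.76 and 5.93 in dry seed total RNA, a rise of 2.93 (SE 0.19, adjusted p = 7.09e-11). RPS10B (AT5G41520), which affects shoot branching when mutated, rose by 1.92 and S10 gene AT5G52650 by 2.05. The S18 genes encode the same protein, and loss of RPS18A gives the pointed first leaf plant. RPS18A (AT1G22780) had 8.83, 8.78 and 9.12 in seedling total RNA, against 7.17, 6.68 and 7.09 in dry seed total RNA, a rise of 1.93 (SE 0.18, adjusted p = 1.55e-08). S18 gene AT1G34030 rose by 1.43 and RPS18C (AT4G09800) by 1.05.

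Whether paralogues of a protein differ in their change was tested directly, with the difference between 2 paralogues on each array as the measured value. A scaling factor of an array and the fixed affinity of each probe set cancel in that difference. The 18 proteins gave 38 pairs, whose p-values were adjusted together with those of all genes. A protein with 3 genes gave 3 pairs that share genes and are not independent, so 1 gene can enter several calls. The difference was called in 25 of 38 pairs in total RNA, 23 in monosomal RNA and 28 in polysomal RNA, and in each of these the seedling and dry seed differences did not overlap. Of all genes and pairs together 62.2%, 51.6% and 53.6% were called, a share that reflects nearly only the genes' own changes. The pair count in total RNA was close to that share. Of all genes, 30.1% were wholly higher and 36.7% wholly lower in seedling total RNA. Of the 27827 genes, 7724 were wholly higher and 7262 wholly lower in seedling monosomal RNA, and 8396 and 8723 in seedling polysomal RNA. Calls in all 3 fractions were made for 19.1% of all genes as higher and 17.6% as lower. How often paralogues of other families differ was not tested. In all 3 fractions and with one sign, 15 pairs of 11 proteins were called, namely of S2, S3, S4, S7, S8, S9, S10, S14, S21, S27 and S28. The S8 pair includes AT5G59240, which lay under the array medians throughout, and without it there were 14 pairs of 10 proteins.

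The S9 pair was the farthest apart. AT5G15200 exceeded AT5G39850 in its change by 4.71 (SE 0.24, adjusted p = 1.62e-12) in total RNA, 6.17 in monosomal RNA and 4.67 in polysomal RNA. S27 followed. The change of AT2G45710 was lower than that of AT5G47930 by a difference of -3.41 (SE 0.20, adjusted p = 1.37e-11) in total RNA, -2.27 in monosomal RNA and -2.71 in polysomal RNA. Against RS27A the difference was -2.34, -1.53 and -1.24 in the same fractions.

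Other pairs differed in the size of their change. S21 gene AT3G53890 rose more than AT5G27700 by 2.16 (SE 0.17, adjusted p = 1.5e-09) in total RNA, 1.55 in monosomal RNA and 2.13 in polysomal RNA. S7 gene AT1G48830 changed less than AT5G16130, with a difference of -1.79 (SE 0.18, adjusted p = 5.76e-08) in total RNA, -2.37 in monosomal RNA and -1.0 in polysomal RNA. The change of S2 gene AT2G41840 exceeded that of AT3G57490 by 1.66 in total RNA, 1.37 in monosomal RNA and 0.81 in polysomal RNA, all called.

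The S6 pair was called in total and polysomal RNA. RPS6 rose more than RPS6B by 0.74 (SE 0.19, adjusted p = 0.00193) in total RNA and by 0.98 (SE 0.19, adjusted p = 0.000131) in polysomal RNA. In monosomal RNA their difference was -0.11 (adjusted p = 0.673), and whether the pair difference itself changes between fractions was not tested. RPS5B exceeded RPS5A by 0.73 (adjusted p = 0.0185) in total RNA, and the differences of 0.40 and 0.14 in monosomal and polysomal RNA were not called.

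No difference was called in any fraction for 4 pairs, among them those of S13, of S18 genes AT1G22780 and AT1G34030, and of S3 genes AT2G31610 and AT5G35530. S13 was the only protein of the 18 with no called pair. Its difference, AT3G60770 minus RPS13A, was 0.07 (SE 0.18) in total RNA, 0.41 (SE 0.18) in monosomal RNA and 0.10 (SE 0.18) in polysomal RNA. None of the 46 genes had values identical to those of another row. Whether near-identical paralogues share labelled RNA on their probes was not tested.

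**Figure D3:**
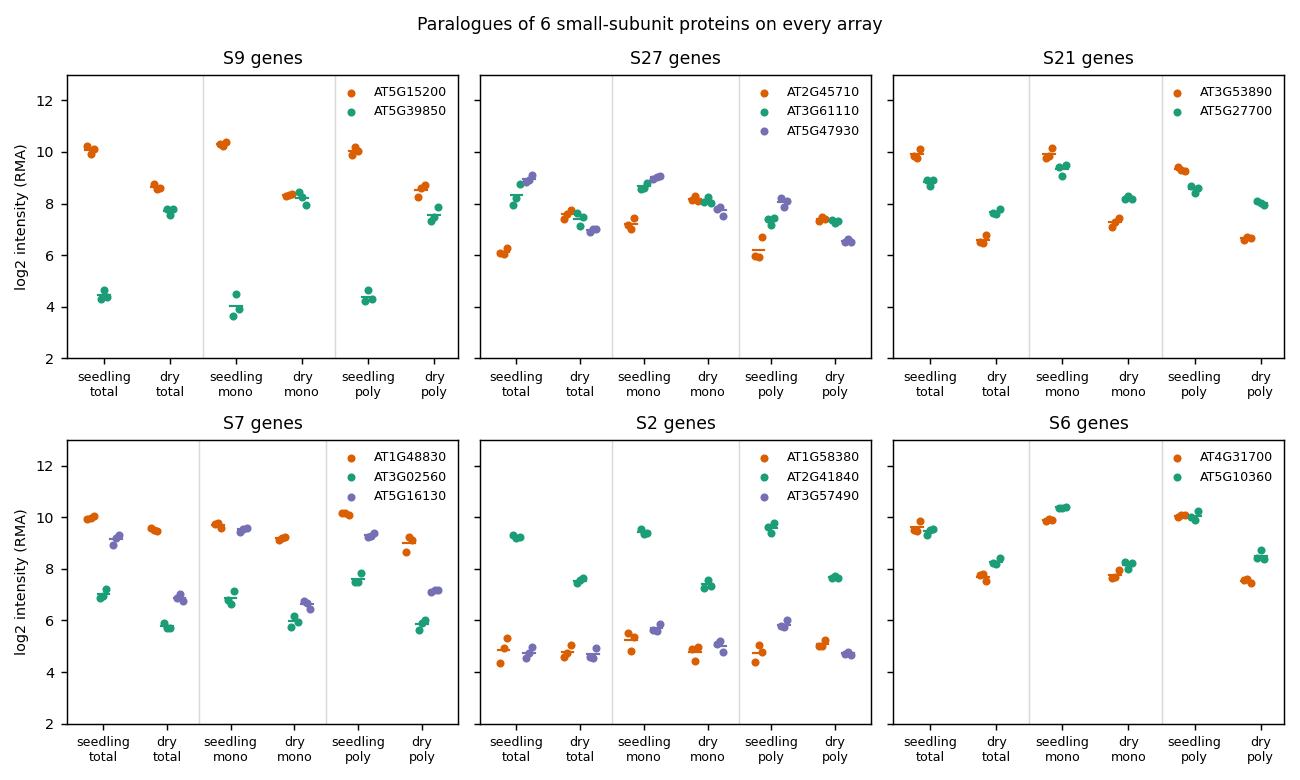
Log2 intensity of the paralogues of S9, S27, S21, S7, S2 and S6 on every array, with one colour per gene, one point per array and a line at each group mean of 3 arrays. The 6 groups run along the horizontal axis. Heights of different genes are not comparable, and the feature to read is the step between seedling and dry seed within a colour. In seedling total RNA S9 gene AT5G39850 fell by 3.26 relative to dry seeds where AT5G15200 rose by 1.45.

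The fractions were then compared within a stage, which asks whether a transcript makes up a larger share of ribosome-bound than of total RNA. Arrays had been scaled to each other and the yield of a fraction is unknown, so these are differences in relative abundance. Comparisons within a stage share arrays, and their values are given side by side. In dry seeds monosomal RNA was called higher than total RNA for 6 members and lower for none, against 3.46% of all genes higher and 2.74% lower. Of the 49 other genes for 40S proteins 11 were higher and 0 lower, and of the 118 genes for 60S proteins 22 and 0. The 6 members encode S10, S21, S27 and S28, and the median over the 46 was 0.25.

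S28 gene AT3G10090 led them. It had 6.13, 6.32 and 6.30 in dry seed monosomal RNA, against 4.48, 5.07 and 4.96 in dry seed total RNA, a difference of 1.41 (SE 0.25, adjusted p = 0.00184). S10 gene AT5G52650 had 7.05, 7.19 and 6.94 in monosomal RNA, against 6.37, 6.15 and 6.04 in total RNA, a difference of 0.87. The values of neither gene overlapped between the fractions. S27 gene AT5G47930 differed by 0.76, S10 gene AT4G25740 by 0.71, RS27A by 0.69 and S21 gene AT3G53890 by 0.68. Of the 12 alternatives run, the call of RS27A was lost in 7 and those of AT4G25740 and AT3G53890 in 5 each.

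Between dry seed polysomal and total RNA no member was called in limma, against 3.15% of all genes higher and 1.5% lower. The unadjusted p was under 0.05 for 2 members higher and 2 lower, against 11.4% of all genes higher and 10.8% lower. A trend and robust variance prior called 1 member higher and 2 lower, against 4.13% and 2% of all genes. The median difference was -0.02.

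Dry seed polysomal RNA differed from dry seed monosomal RNA for 14 members, 1 of them higher and 13 lower, against 11.5% of all genes higher and 7.49% lower. The median was -0.23, and -0.12 over all genes. S28 gene AT3G10090 had 5.04, 4.95 and 5.18 in dry seed polysomal RNA, against 6.13, 6.32 and 6.30 in dry seed monosomal RNA, a difference of -1.20 (SE 0.25, adjusted p = 0.00195). S27 gene AT5G47930 had 6.52, 6.64 and 6.51 in polysomal RNA, against 7.79, 7.87 and 7.54 in monosomal RNA, a difference of -1.18. S18 gene AT1G34030 had 5.72, 5.42 and 5.77 in polysomal RNA, against 6.17, 6.80 and 6.50 in monosomal RNA, a difference of -0.85. In all 3 genes the polysomal values lay wholly under the monosomal ones. The 1 gene higher on polysomes was S7 gene AT5G16130, by 0.51 (adjusted p = 0.0356), a call lost in 7 of 12 alternatives with an adjusted p of up to 0.135.

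In seedlings monosomal RNA was called higher than total RNA for 14 members and lower for none, against 17.2% of all genes higher and 14.5% lower. The median was 0.38, and 0.11 over all genes. Of the 49 other genes for 40S proteins 16 were higher and 1 lower, and of the 118 genes for 60S proteins 39 and 6. S27 gene AT2G45710 had 7.15, 7.02 and 7.43 in seedling monosomal RNA, against 6.09, 6.05 and 6.28 in seedling total RNA, a difference of 1.06 (SE 0.21, adjusted p = 0.000922). RPS28 had 9.28, 9.36 and 9.38 in monosomal RNA, against 8.13, 8.50 and 8.49 in total RNA, a difference of 0.96. RPS6B had 10.37, 10.37 and 10.40 in monosomal RNA, against 9.29, 9.52 and 9.53 in total RNA, a difference of 0.93. S2 gene AT3G57490 differed by 0.94 and S14 gene AT3G11510 by 0.87. The called genes encode 12 of the 18 proteins, from every region of the subunit.

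Seedling polysomal RNA was higher than seedling total RNA for 8 members and lower for 4, against 9.86% and 10.7% of all genes. S2 gene AT3G57490 had 5.77, 5.74 and 6.0 in polysomal RNA, against 4.55, 4.73 and 4.96 in total RNA, a difference of 1.09 (SE 0.18, adjusted p = 0.000369). RPSAA had 9.85, 10.11 and 10.40 in polysomal RNA, against 9.27, 9.18 and 9.66 in total RNA, a difference of 0.75. RS27A had 7.40, 7.19 and 7.45 in polysomal RNA, against 7.96, 8.23 and 8.76 in total RNA, a difference of -0.97. Those 8 higher genes encode RPSa, S2, S3, S3a, S5, S6, S7 and S10. The lower genes encode S21, S27 and S28, with S27 gene AT5G47930 at -0.89 and S28 gene AT5G03850 at -0.75. The split between higher and lower moved with the scaling, to 11 higher and 3 lower with arrays centred on their medians and 4 higher and 6 lower with loess scaling. Shares of all genes called under these scalings were not counted. Without seedling polysomal replicate 3 the calls of 6 genes were lost. The differences were then 0.49 (adjusted p = 0.0814) for S3 gene AT2G31610, 0.52 (adjusted p = 0.0674) for RPS5A and 0.51 (adjusted p = 0.0742) for RPS6B. They were 0.48 (adjusted p = 0.143) for S7 gene AT3G02560, 0.51 (adjusted p = 0.0791) for S10 gene AT5G52650 and -0.54 (adjusted p = 0.0716) for S21 gene AT3G53890.

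Seedling polysomal RNA differed from seedling monosomal RNA for 15 members, 1 higher and 14 lower, against 10.9% of all genes higher and 8.17% lower. RS27A had 7.40, 7.19 and 7.45 in seedling polysomal RNA, against 8.57, 8.62 and 8.80 in seedling monosomal RNA, a difference of -1.32 (SE 0.20, adjusted p = 0.000322). S28 gene AT5G03850 had 8.86, 9.13 and 9.01 in polysomal RNA, against 9.96, 9.92 and 10.45 in monosomal RNA, a difference of -1.11. RPS28 had 8.17, 8.33 and 8.42 in polysomal RNA, against 9.28, 9.36 and 9.38 in monosomal RNA, a difference of -1.03. The polysomal values of all 3 lay wholly under the monosomal ones, and S27 genes AT2G45710 and AT5G47930 followed with -1.01 and -0.97. Without seedling polysomal replicate 3 the difference of AT2G45710 was -1.26. The gene that was higher on polysomes was S7 gene AT3G02560, by 0.75 (adjusted p = 0.0125), a call lost in 4 of 12 alternatives with an adjusted p of up to 0.078. Without seedling polysomal replicate 3 its difference was 0.63 (adjusted p = 0.0576), and those of RPSAb at -0.73 (adjusted p = 0.0706), S10 gene AT4G25740 at -0.57 (adjusted p = 0.0876) and S21 gene AT3G53890 at -0.56 (adjusted p = 0.0627) also missed the threshold.

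A lower polysomal than monosomal signal was also found outside the 46 genes. Of the 49 other genes for 40S proteins, 0 were called higher and 16 lower in seedlings, and 2 higher and 17 lower in dry seeds. Of the 118 genes for 60S proteins, 3 were higher and 25 lower in seedlings, and 0 higher and 35 lower in dry seeds. Among the 46, genes for proteins with higher numbers tended to be lower in polysomal than in monosomal RNA. The proteins were numbered roughly from the larger to the smaller. A division of the 46 genes at S10 was chosen after the values were seen and was given no test. In seedlings the 22 genes for S10 to S28 had 0 called higher and 13 lower in polysomal than in monosomal RNA, with a median difference of -0.61. The 24 genes for RPSa to S9 had 1 higher and 1 lower, with a median of 0.08. In dry seeds 0 of the 22 were higher and 12 lower, with a median of -0.59, and of the 24 there was 1 higher and 1 lower, with a median of -0.15. The stages used separate arrays, but the division was chosen with the values of both known, so they are not independent repeats of it. Genes called lower on polysomes numbered 14 in seedlings and 13 in dry seeds. Of the 46 genes, 7 were called lower at both stages, against 1.44% of all genes. They were S10 gene AT4G25740, S21 gene AT3G53890, all 3 S27 genes, S28 gene AT3G10090 and RPS28. The seedling call of AT4G25740 was lost in 6 of 12 alternatives and that of AT3G53890 in 4.

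By protein the median difference in seedlings was 0.45 for S7, 0.24 for S3a and 0.15 for S2, and at the other end -0.92 for S14, -1.01 for S27 and -1.03 for S28. In dry seeds it was 0.29 for S2, -0.71 for S10, -0.72 for S18 and -0.79 for S27. Over the 17 numbered proteins Spearman's rho of this median with the place in the numbering was -0.87 in seedlings (Pearson's r -0.84) and -0.84 in dry seeds (Pearson's r -0.82). For polysomal minus total RNA rho was -0.87 in seedlings (Pearson's r -0.86) and -0.35 in dry seeds (Pearson's r -0.38), for monosomal minus total RNA it was 0.00 in seedlings and 0.63 in dry seeds, and for the stage change in total RNA it was 0.15. All proteins share the same arrays in each of these, neighbouring paralogues are alike in sequence, and protein and transcript lengths were not used here. The correlations are descriptions over proteins, which are not replicates.

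**Figure D4:**
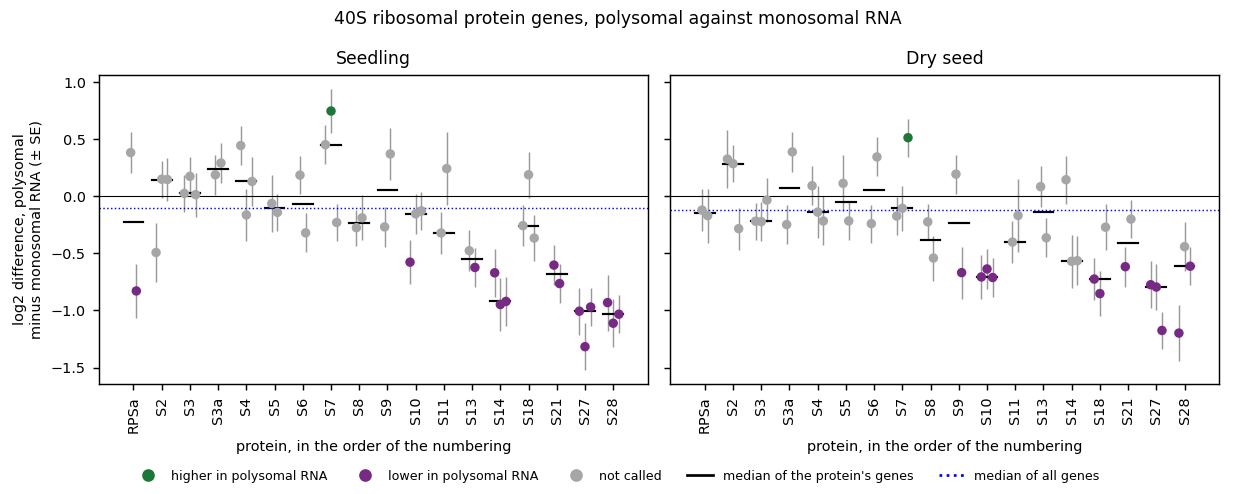
Log2 difference between polysomal and monosomal RNA for 45 of the 46 genes (points with ± SE), arranged by protein in the order of the numbering, for seedlings on the left and dry seeds on the right. Purple points were called lower in polysomal RNA, green points higher, grey points were not called, black bars are medians of all of a protein's genes and the dotted line is the median of all genes. In seedlings the medians run down to -1.03 for S28.

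Of the 61 calls of members between fractions 26 held at an adjusted p under 0.05 in every alternative fit, with the stricter threshold of 0.01 left aside. Finally the difference between fractions was compared between stages. For the difference of monosomal minus total RNA 1 member was called higher in seedlings than in dry seeds and 3 lower, against 9.27% and 9.85% of all genes. With arrays centred on their medians the same comparison gave 4 higher and 0 lower, and the share of all genes called was not counted there. For polysomal minus total RNA 1 was higher and 0 lower, against 4.04% and 4.96%, and for polysomal minus monosomal RNA 2 were higher and 1 lower, against 5.69% and 4.8%. In the fit as reported, shares of members called were under the background in each direction of all 3 comparisons.

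RPS6B had the largest of these in the monosomal comparison. Its monosomal minus total difference was 0.93 in seedlings and -0.11 in dry seeds, which differ by 1.04 (SE 0.24, adjusted p = 0.00655). S2 gene AT3G57490 had a polysomal minus total difference of 1.09 in seedlings and 0.03 in dry seeds, which differ by 1.06 (SE 0.26, adjusted p = 0.0163). S18 gene AT1G34030 had a polysomal minus monosomal difference of 0.19 in seedlings and -0.85 in dry seeds, which differ by 1.04 (SE 0.28, adjusted p = 0.0237).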

How the data were processed

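The deposited values were log2 intensities, 1 per locus and array, from 3' expression arrays. The submitters' processing notes name RMA, robust multi-array averaging. The RMA version, platform and probe grouping are not given in the sources used here. Biotin-labelled cRNA came from a one-cycle kit, per the labels' protocols. Arrays carry no counts or depth, and their number limits the precision.

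Groups came from the labels. A model with 6 group means over all 18 arrays was fitted to 27827 rows in limma 3.58.1 under R 4.3.3 (12 residual degrees of freedom). The 12 comparisons were each adjusted over all rows by Benjamini and Hochberg and called under 0.05. Of the rows, 27241 matched RefSeq (TAIR10.1), used for names only. Differences between 38 paralogue pairs were added as rows in the 3 stage comparisons (27865 rows). Tables were made with Python 3.11.15 and pandas 2.3.3. The scripts were tested on simulated data.

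Members, lists and tests were chosen with earlier results of these data known. Values were given for the 6 pairs farthest apart in total RNA, the 3 largest and 3 smallest changes there, up to 5 called members per fraction comparison, and 7 genes chosen by name. S3, S4, S8 and other members named beyond these carry their change, with an adjusted p where its side of the threshold matters. Same-numbered arrays were not paired: their deviations from group means correlated at -0.058 to 0.078 over 45 array pairs. These include pairs of a seedling with a dry seed array. Between fractions of seedlings the same-numbered arrays gave 0.009 to 0.077, all positive. Pairing within a stage alone was not fitted. No batch was named for single arrays. Replicates were separate bulks of plants, and labels did not tie numbers across groups. Alternatives were median or loess scaling, a filter on low means, a trend and robust prior, a replicate block, only the groups compared, each array left out, and a threshold of 0.01. The threshold of 0.01 was applied to counts of calls. It is not among the alternatives under which single calls are said to hold or be lost. The values of 1 gene are not reported here, though counts over the members include it.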

Additional observations from a re-analysis of the deposited data

Results flagged for a closer look

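Every result listed here is a fraction difference that was called as unequal between seedlings and dry seeds in limma. For monosomal minus total RNA RPS6B (AT5G10360) differed by 1.04 (SE 0.24, adjusted p = 0.00655), S9 gene AT5G39850 by -0.94 (adjusted p = 0.0465), RPS10B (AT5G41520) by -0.74 (adjusted p = 0.0462) and S27 gene AT5G47930 by -0.68 (adjusted p = 0.0458). For polysomal minus total RNA S2 gene AT3G57490 differed by 1.06 (adjusted p = 0.0163). For polysomal minus monosomal RNA S18 gene AT1G34030 differed by 1.04 (adjusted p = 0.0237), S9 gene AT5G39850 by 1.04 (adjusted p = 0.0444) and S7 gene AT5G16130 by -0.74 (adjusted p = 0.0487). At a threshold of 0.05 the calls of RPS6B and AT3G57490 held under every alternative run for them. That of AT1G34030 was lost in 2 of 18, and the other 5 were lost in 11 to 14 of 18. At 0.01 only the call of RPS6B remained. The seedling values of AT5G39850 lay little above the array medians in all fractions.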

How the results depend on the processing

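Of 124 calls of members between stages 107 held at 0.05 under every alternative fit. Between fractions 26 of 61 calls held, and 2 of 8 in the differences between stages. These counts leave out the threshold of 0.01. Centring each array on its median moved the median change of all genes by -0.51 in total, -0.36 in monosomal and -0.44 in polysomal RNA between stages, and by 0.17 for seedling monosomal and 0.11 for seedling polysomal minus total RNA. It also moved the monosomal minus total difference between stages by 0.15, and loess scaling moved the change in total RNA by 0.14. With median centring 31 members were called higher and 3 lower in seedling total RNA. The share of all genes called was not counted with that centring, so these 2 counts have no background. With the same centring S7 gene AT1G48830 came to -0.032 and S2 gene AT3G57490 to -0.46 in total RNA. On polysomes S28 gene AT3G10090 came to -0.23 and RS27A (AT3G61110) to -0.41. AT3G10090 on monosomes came to 0.36 with loess scaling, and leaving out each array gave -0.17 (seedling monosomal replicate 2) to 0.052 (seedling monosomal replicate 1). AT3G57490 in total RNA came to -0.0068, -0.023 and -0.059 without dry seed total replicate 1, dry seed total replicate 2 and seedling total replicate 3. RS27A on polysomes came to -0.0091 without dry seed polysomal replicate 2 and -0.024 without seedling polysomal replicate 3. None of these was called in the fit as reported, except AT1G48830.

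Counts of called members moved most between fractions. Shares of all genes called were not counted for these alternatives, apart from the trend and robust prior in dry seed polysomal minus total RNA. For dry seed monosomal minus total RNA the count of 6 became 10 without the lowest 25% of means, 13 with a trend and robust prior, 1 with only the groups compared and 3 at a threshold of 0.01. For dry seed polysomal minus total RNA 0 became 3 with that prior, and for dry seed polysomal minus monosomal RNA 14 became 6 at 0.01. The seedling count of 14 for monosomal minus total RNA became 24 with median centring, 8 with only the groups compared and 9 at 0.01. In seedlings 12 became 4 at 0.01 for polysomal minus total RNA, and 15 became 7 with only the groups compared and 8 at 0.01 for polysomal minus monosomal RNA. For the differences between stages, monosomal minus total gave 4, and 8 with the trend prior, 1 with only the groups compared and 1 at 0.01. Polysomal minus total gave 1, and 2 with loess, 8 with the trend prior and 0 at 0.01. Polysomal minus monosomal gave 3, and 9, 1 and 0 with the trend prior, only the groups compared and 0.01.

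Leaving out each array in turn gave 39 to 42, 39 to 42 and 40 to 41 members between stages and 21 to 27, 21 to 23 and 22 to 27 pairs. For dry seed monosomal minus total RNA it gave 3 to 6 (3 without dry seed monosomal replicate 3 or dry seed total replicate 2), for polysomal minus total RNA 0 to 1 (1 without dry seed total replicate 3), and for polysomal minus monosomal RNA 8 to 14 (8 without dry seed polysomal replicate 1, 9 without dry seed monosomal replicate 3). For seedling monosomal minus total RNA it gave 9 to 17 (9 without seedling total replicate 1), for polysomal minus total RNA 6 to 10 (6 without seedling polysomal replicate 3, 7 without seedling total replicate 1), and for polysomal minus monosomal RNA 10 to 13. The differences between stages gave 1 to 3, 1 to 2 and 0 to 3, with the count of 3 for polysomal minus monosomal lost entirely without dry seed monosomal replicate 2 or dry seed polysomal replicate 2. With the replicate block the counts between stages were 42, 42 and 41 members and 25, 23 and 28 pairs, and no count moved by over 1.5 times. For fractions the block gave 5, 0 and 14 in dry seeds, 14, 12 and 15 in seedlings and 3, 1 and 3 between stages. Pairing rests on the number alone. A planned count of promoter motifs was not run, since no promoter sequence was used here. The causes of these moves were not tested.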
